A study of Danio rerio with 9 samples.

Results

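Chaperones are proteins that bind other proteins while these fold, assemble, cross membranes or recover from stress. The heat shock and DnaJ chaperone genes of the zebrafish kidney were taken as the rows of the deposited gene table whose symbol starts with hsp followed by a digit or one of the letters a, b, d, e and h, or with dnaja, dnajb or dnajc. The gene *hspg2*, which encodes the matrix protein perlecan, was left out. This gave 87 of the 30628 genes in the table, all protein-coding. The rule used symbols only, but it was set with earlier results of these data known.

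The work of these proteins is shared between a few machines. HSP70 proteins bind short unfolded stretches and release them in an ATP-driven cycle. J proteins, the products of the dnaj genes, bring clients to HSP70 and start its ATP hydrolysis, while HSP110 proteins and other nucleotide exchange factors end the cycle. HSP90 acts later on clients such as kinases and steroid receptors, HSP60 with its lid HSP10 forms a folding cage in mitochondria, and small heat shock proteins hold unfolded proteins without ATP. Separate members serve the cytosol, the endoplasmic reticulum (ER) and mitochondria. Heat and other stress induce some of them through heat shock factors, and others are made at all times.

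RNA was sequenced from whole kidneys of wild-type WIK zebrafish, a laboratory strain, at 12 months of age, in 4 male and 5 female libraries. The question was which transcripts differ between male and female kidneys. Sets of kidneys were collected, and the number of fish in a set is not given in the sources used here, so the p-values measure the spread between these samples only. The male libraries are M1, M2, pkd1M1 and pkd1M4, and the female libraries are F1, F2, F3, F4 and F6. The table names pkd1M1 and pkd1M4 with both pkd1 and wt, while the labels call every sample wild type.

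Estimated counts summed to between 24902978 and 52986838 in male and between 30714070 and 38758188 in female libraries. Levels are given as CPM, a gene's count relative to its library's total after TMM scaling, which puts libraries on a common scale. The sexes were tested with the quasi-likelihood method of edgeR. A gene passed when its p-value, adjusted by the Benjamini-Hochberg method over the 22148 genes tested, was under 0.05, and log2 fold changes above 0 mean a higher level in males. Proximal tubule markers were present in every library, with a summed level of 7940 to 12900 CPM in males and 2310 to 7940 CPM in females over 12 genes. Of these 2 were higher in males, as were 7 of 8 distal tubule markers, while 5 of 11 myeloid and 3 of 11 lymphoid markers were higher in females. Over all genes tested, 7.02% were higher in males and 6.20% in females. At an unadjusted p under 0.05, 2966 of the 22148 genes were higher in males and 2971 in females, and DESeq2 called 2209 and 2190. Most of the proximal tubule sum in males came from *slc22a2*, 1 of the 2 that passed. It had 4740 to 8545 CPM in males and 867 to 3249 CPM in females. The other 10 proximal tubule markers did not pass, with log2 fold changes of -0.425 to 1.57. Oocyte markers summed to 4330 CPM in F1, against 45.3 to 105 CPM in males and 72.1 to 188 CPM in the other females, and 5 of the 11 tested were higher in females (DESeq2 called 0). In the males, F2 and F6 most of these sums came from *h1m*, which had 40.6 to 99.3 CPM in males. In F3 and F4, with sums of 138 and 188 CPM, *h1m* had 52.71 and 45.85 CPM. The egg coat genes *zp2.1*, *zp2.2*, *zp2.5* and *zp3*, which passed, had 3.13 to 37.99 CPM in F2, F3 and F4. They had 0.234 to 0.768 CPM in F6 and at most 1.13 CPM in males. In F2, F3 and F4 *zp3b* had 2.57, 6.93 and 16.6 CPM, against at most 2.53 CPM in males, and did not pass. The levels of *zp2.3*, which was not tested, were 0.395, 0 and 10.6 CPM in F2, F3 and F4. Testis markers summed to 86.7 CPM in pkd1M4, 39.5 to 41.8 CPM in the other males and 15.0 to 48.7 CPM in females. Of the 7 tested, 1 (14.3%) was higher in males and 0 in females (DESeq2 called 2 and 0). It was *odf3b* (log2 fold change 1.70, adjusted p = 0.0243 by edgeR), in which the sexes did not overlap. Liver markers summed to 2190 CPM in pkd1M4, against 184 to 310 CPM in the other males and 328 to 1420 CPM in females. Most of each female sum came from *tfa*, which had 176 to 949 CPM in females. It had 741 CPM in pkd1M4 and 0.824 to 11.4 CPM in the other males. Of the 11 liver markers, 9 had a log2 fold change above 0 and 2 below. By edgeR 0 passed, with 3 higher in males and 1 in females at an unadjusted p under 0.05, and 1 each by DESeq2. In bulk RNA, more cells of a type and more RNA per cell cannot be told apart, and the part of these cell types in the results was not tested.

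Of the 87 chaperone genes, 78 had enough counts to be tested, and 15 passed (19.2%), where 13.2% of all genes tested passed. The direction was uneven: 14 were higher in males (17.9%, against 7.02% of all genes) and 1 was higher in females (1.28%, against 6.20% of all genes). The median log2 fold change was 0.088 over the 78 genes and -0.034 over all genes tested. Of the 78 genes, 42 had a log2 fold change above 0 and 36 below. With the additional limit of the study, an absolute log2 fold change above 1.5, 5 genes passed, where 6.54% of all genes did. Of these 4 were higher in males, where the share over all genes was 3.48%, and 1 was higher in females, where it was 3.06%. The male libraries all exceeded the female libraries in 12 of the 78 genes, where they did so in 8.42% of all genes tested. The female libraries all exceeded the male libraries in 1 of the 78 genes, where they did so in 8.06% of all genes tested.

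**Figure D1:**
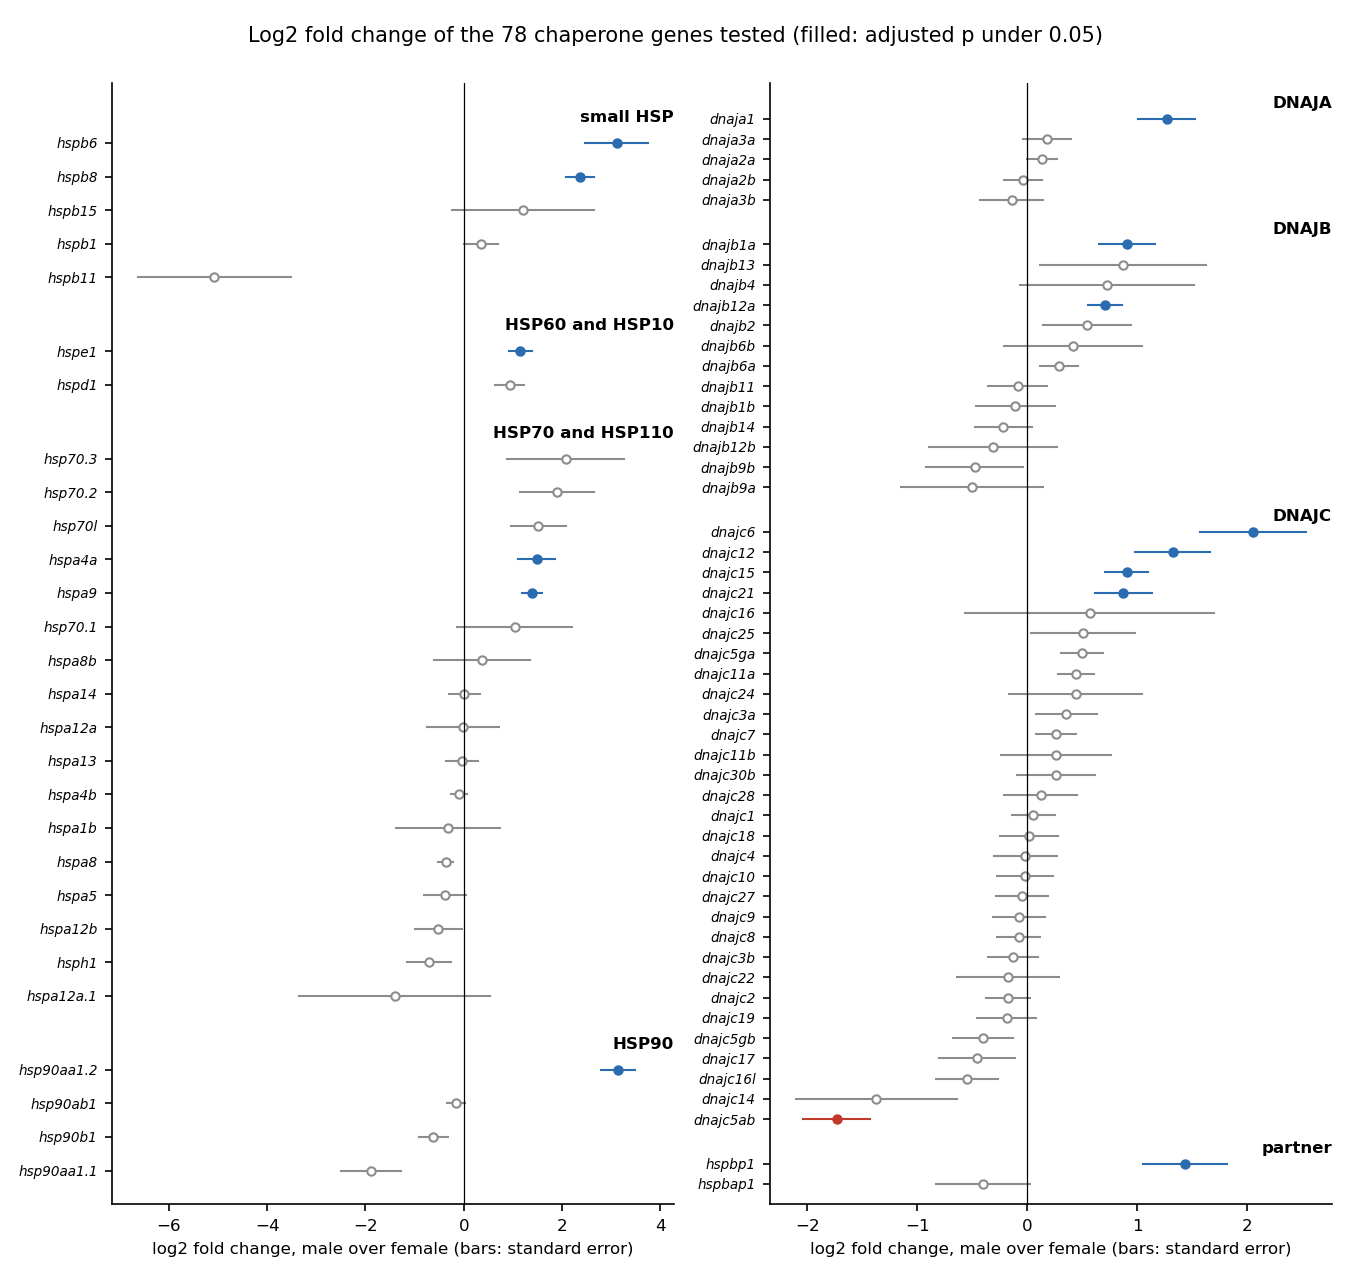
Log2 fold change (x axis, male over female) of the 78 chaperone genes tested, by class, with bars of 1 standard error. Filled blue points passed the test with a higher level in males, the filled red point passed with a higher level in females, open grey points did not pass, and the x axes of the panels differ in range. The 14 genes higher in males are spread over every class, and *dnajc5ab* is the gene higher in females.

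Among the small heat shock proteins, the ATP-independent holders, 2 of the 5 genes tested were higher in males (40.0%, against 7.02% of all genes). The gene *hspb8*, whose human product works with BAG3 in clearing damaged proteins, had 243, 218, 266 and 260 CPM in M1, M2, pkd1M1 and pkd1M4, against 35.6, 37.8, 75.5, 28.7 and 63.6 CPM in F1, F2, F3, F4 and F6. The lowest male library lay well above the highest female library. The difference on the log2 scale was 2.36 (standard error 0.29, adjusted p = 0.000859 by edgeR), a ratio of 5.12.

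The gene *hspb6*, a small heat shock protein best known from muscle, had 23.3, 40.6, 141 and 17.9 CPM in M1, M2, pkd1M1 and pkd1M4. In F1, F2, F3, F4 and F6 it had 9.02, 2.68, 7.61, 3.35 and 9.62 CPM. The male libraries were all higher but differed widely among themselves, with pkd1M1 far above the rest and an SD (57.9 CPM) above the mean (55.8 CPM, n = 4). The difference on the log2 scale was 3.11 (standard error 0.64, adjusted p = 0.0107 by edgeR), and without pkd1M1 it was 2.08 (adjusted p = 0.0266). Skeletal muscle markers had a summed level of 426, 19.2, 73.6 and 405 CPM in the same male libraries and 33.6 to 494 CPM in females, and their part in this result was not tested.

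The cochaperone *bag3*, which in human cells binds both HSPB8 and HSPB6, was higher in males as well. Its level was 21.9 ± 2.92 CPM in males (SD, n = 4) and 7.92 ± 1.99 CPM in females (SD, n = 5), a log2 fold change of 1.46 (adjusted p = 0.0037 by edgeR), and the sexes did not overlap. The stress-inducible *hspb1* (HSP27) did not pass, with 6.496 to 19.2 CPM in males and 6.47 to 13.9 CPM in females (log2 fold change 0.35, adjusted p = 0.597 by edgeR). Nor did *hspb15*, at 0 to 3.57 CPM in males and 0 to 1.44 CPM in females.

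The fifth small heat shock gene tested, listed as *hspb11*, was chosen for description after its values were seen. A table of gene names pairs its identifier, ENSDARG00000002204, with *hspb9l*. It had estimated counts of 26, 1, 13 and 4 in M1, M2, pkd1M1 and pkd1M4. The counts were 629, 842 and 679 in F1, F2 and F6, but 27 in F3 and 3 in F4. Females thus fell into a high set of 3 libraries and a low set of 2 at the male level. At -5.07 (standard error 1.56) on the log2 scale, a fitted value that depends on the prior count, it did not pass (adjusted p = 0.0562 by edgeR). It passed without F3 (adjusted p = 0.0444), without F4 (adjusted p = 0.0217) and with the DESeq2 test (adjusted p = 0.000182). Oocyte markers summed to 4330, 98.3 and 72.1 CPM in the 3 high libraries and 138 and 188 CPM in F3 and F4, and their part in this pattern was not tested.

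The HSP90 class, formed by symbol, had 4 genes and leaves out the mitochondrial HSP90 gene *trap1*, given below. The product of *hsp90aa1.2* is a cytosolic HSP90 alpha, and the gene had 95.7, 118, 136 and 50.4 CPM in M1, M2, pkd1M1 and pkd1M4. Females had 10.8, 11.8, 7.73, 18.5 and 8.12 CPM in F1, F2, F3, F4 and F6. Even the lowest male library was above the highest female library by more than the female range. The difference of 3.14 on the log2 scale (standard error 0.34, adjusted p = 0.000522 by edgeR), a ratio of 8.79, had the smallest p-value of the 78 genes.

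Its neighbour *hsp90aa1.1* went the other way in these libraries without passing. The table places *hsp90aa1.2* on chromosome 20 from 53967350 to 53981626 and *hsp90aa1.1* from 53982317 to 54012043, with 690 bases between them (GRCz11 in the study's methods). The level of *hsp90aa1.1*, known in zebrafish for its role in folding muscle myosin, was 1.604, 0.867, 1.54 and 1.1 CPM in M1, M2, pkd1M1 and pkd1M4. In F1, F2, F3, F4 and F6 it was 6.04, 8.57, 2.25, 1.21 and 5.58 CPM. All females but F4 lay above all males, and the difference on the log2 scale was -1.89 (standard error 0.61, adjusted p = 0.0693 by edgeR), with an adjusted p of 0.03 without F4. Where a read fits both neighbours, its estimated count may be split between them. The sum of both was 51.5 to 138 CPM in males and 9.98 to 20.3 CPM in females, so the sexes did not overlap in the sum either.

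The constitutive cytosolic *hsp90ab1* (HSP90 beta) had 3899, 4772, 6227 and 3931 CPM in M1, M2, pkd1M1 and pkd1M4 and 4376 to 5810 CPM in females (log2 fold change -0.16, standard error 0.18, adjusted p = 0.644 by edgeR). The ER form *hsp90b1* (GRP94) had 120 to 185 CPM in males and 102 to 296 CPM in females (log2 fold change -0.62, standard error 0.29, adjusted p = 0.208 by edgeR). In females F6 was the lowest library at 102 CPM, against 199 to 296 CPM in the others. Without F6 the gene passed with a log2 fold change of -0.81 (adjusted p = 0.0195 by edgeR).

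Of the 22 genes listed as HSP90 cochaperones, all tested, 3 passed (13.6%, where 13.2% of all genes did). All 3 were higher in males, where the share over all genes was 7.02%. None was higher in females, where 1 had an unadjusted p under 0.05 and DESeq2 called 0. The p23 gene *ptges3a*, which stabilizes the closed form of HSP90, had 115 ± 13.2 CPM in males and 41.7 ± 7.90 CPM in females (SD, n = 4 and 5, log2 fold change 1.47, adjusted p = 0.000899 by edgeR). Its paralog *ptges3b* had 69.6 ± 13.7 CPM in males and 126 ± 63.8 CPM in females and did not pass (log2 fold change -0.85, adjusted p = 0.126). The mitochondrial HSP90 gene *trap1* (log2 fold change 1.15, adjusted p = 0.00995) and *pih1d1*, a subunit of the R2TP assembly complex (0.94, adjusted p = 0.0417), also passed. The list thus counts *trap1*, which is an HSP90 itself rather than a cochaperone. The median over the 22 genes was 0.31.

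**Figure D2:**
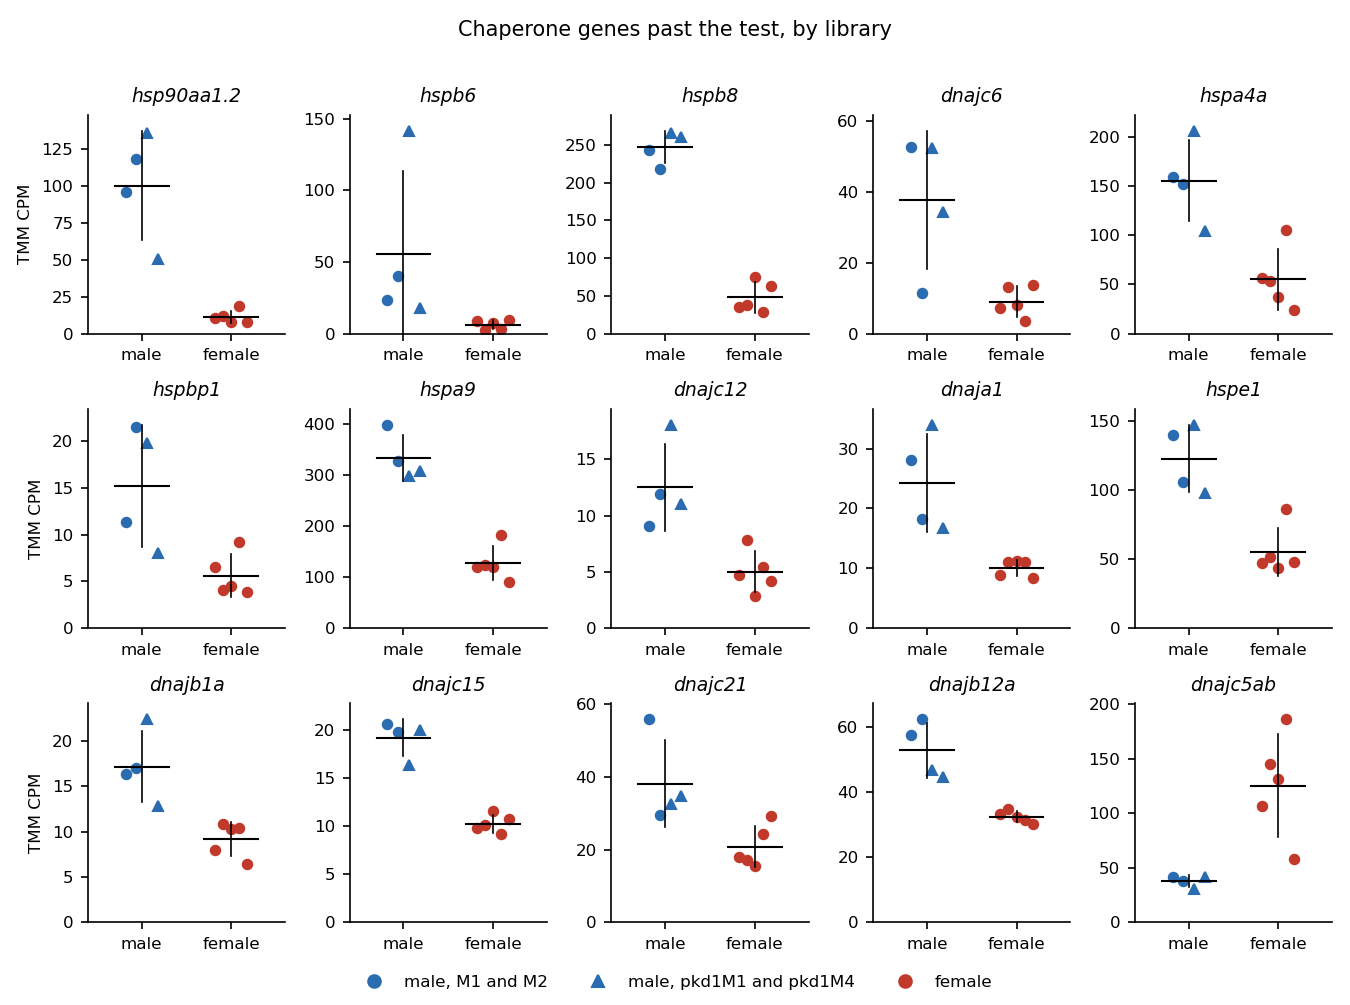
Levels in TMM CPM (y axis, linear from 0) of the 15 chaperone genes past the test in each male (blue) and female (red) library, with triangles for pkd1M1 and pkd1M4, a horizontal line at the mean and a vertical line of 1 SD cut off at 0. In *hspb8* and *hspa9* the male libraries stand clear of the female libraries, while *dnajc6*, *hspa4a* and *hspbp1* overlap.

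Of the 11 members listed as mitochondrial, all tested, 3 passed, all higher in males (27.3%, against 7.02% of all genes), and 8 did not. The gene *hspa9* (mortalin), the HSP70 of the mitochondrial matrix, had 397, 327, 298 and 307 CPM in M1, M2, pkd1M1 and pkd1M4. Females had 119, 123, 119, 183 and 91.0 CPM in F1, F2, F3, F4 and F6. The lowest male library was above the highest female library, F4. The difference on the log2 scale was 1.39 (standard error 0.21, adjusted p = 0.00223 by edgeR), a ratio of 2.62.

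The HSP10 gene *hspe1* had 140, 106, 147 and 97.9 CPM in M1, M2, pkd1M1 and pkd1M4, against 47.0, 51.7, 43.6, 86.0 and 47.5 CPM in F1, F2, F3, F4 and F6. The sexes did not overlap, and F4 stood apart among the females (log2 fold change 1.15, standard error 0.24, adjusted p = 0.0101 by edgeR). The HSP60 gene *hspd1* lies 233 bases from *hspe1* in the table, on chromosome 9 from 32286605 to 32300783 with *hspe1* from 32301017 to 32305007. In mammals this gene pair is transcribed from a shared promoter.

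In M1, M2, pkd1M1 and pkd1M4 the level of *hspd1* was 292, 242, 357 and 177 CPM, and in F1, F2, F3, F4 and F6 it was 123, 140, 113, 235 and 87.9 CPM. The order of the libraries was close to that of *hspe1*, with pkd1M1 and M1 highest, pkd1M4 lowest among males and F4 highest among females. Here F4 exceeded pkd1M4, and the log2 fold change of 0.94 (standard error 0.30) did not pass (adjusted p = 0.063 by edgeR). Without F4 it was 1.199 and passed (adjusted p = 0.0131), and DESeq2 called it with all libraries (adjusted p = 0.0211).

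The third mitochondrial gene that passed was *dnajc15*, whose human product is a J protein of the inner membrane. It had 20.6, 19.8, 16.3 and 19.9 CPM in M1, M2, pkd1M1 and pkd1M4 and 9.12 to 11.5 CPM in females, with little spread within either sex (log2 fold change 0.90, standard error 0.19, adjusted p = 0.0126 by edgeR). Its relative *dnajc19*, of the protein import motor, did not pass, with 12.5 to 22.8 CPM in males and 14.8 to 26.4 CPM in females. The matrix J proteins *dnaja3a* and *dnaja3b* had log2 fold changes of 0.18 and -0.14 (adjusted p = 0.671 and 0.817 by edgeR), and *dnajc11a*, of the cristae organizing complex, 0.44 (adjusted p = 0.112). The other 3, *dnajc4*, *dnajc11b* and *dnajc30b*, had adjusted p-values of 0.709 to 0.98 by edgeR.

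Some partners of the mitochondrial machinery, from the lists of other genes, passed with a higher level in males. The nucleotide exchange factor gene of mitochondrial HSP70, *grpel1*, had 47.2 ± 11.8 CPM in males and 22.3 ± 8.31 CPM in females (SD, n = 4 and 5, log2 fold change 1.079, adjusted p = 0.0326 by edgeR), with an overlap of pkd1M4 and F4. Its paralog *grpel2* did not pass (log2 fold change 0.053, adjusted p = 0.918). The matrix protease *lonp1* had a log2 fold change of 1.51 (adjusted p = 0.00459) and *clpxa*, the unfolding subunit of the ClpXP protease, 0.64 (adjusted p = 0.0132). These were 2 of the 8 genes tested for mitochondrial proteases, where 7.02% of all genes tested were higher in males. The other 6, *clpp*, *clpxb*, *spg7*, *afg3l2*, *yme1l1a* and *yme1l1b*, did not pass (log2 fold changes of -0.072 to 1.19). The largest of these, for *afg3l2*, came with 522 CPM in pkd1M1, against 64.0 to 82.0 CPM in the other males. Females had 57.0 to 102 CPM. The median over the 8 was 0.49. Among 83 nuclear genes of the respiratory chain and ATP synthase tested, a list added after seeing the data, 37 were higher in males (44.6%, against 7.02% of all genes). The median log2 fold change was 0.55. Their summed level was 15800 to 17500 CPM in males and 10100 to 12900 CPM in females, and its part in the chaperone results was not tested.

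The HSP70 and HSP110 class held 19 genes, of which 17 were tested and 2, *hspa9* and *hspa4a*, passed (11.8%, where 13.2% of all genes did). The product of *hspa4a* is an HSP110 protein, an exchange factor of cytosolic HSP70. It had 159, 151, 206 and 105 CPM in M1, M2, pkd1M1 and pkd1M4, against 56.3, 53.6, 37.4, 106 and 24.1 CPM in F1, F2, F3, F4 and F6. As in *hspd1*, F4 reached the level of pkd1M4, and the other females lay below every male (log2 fold change 1.49, standard error 0.38, adjusted p = 0.0264 by edgeR). Its paralog *hspa4b* had 81.3 to 114 CPM in males and 92.9 to 119 CPM in females (log2 fold change -0.10, adjusted p = 0.765), and *hsph1* had 2.08 to 7.003 CPM in males and 4.54 to 9.23 CPM in females (log2 fold change -0.71, adjusted p = 0.355).

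The constitutive HSP70 of the cytosol, *hspa8* (HSC70), had 2552, 2433, 2304 and 2074 CPM in M1, M2, pkd1M1 and pkd1M4 and 2896, 3145, 3312, 2520 and 3209 CPM in F1, F2, F3, F4 and F6. Females were higher apart from F4, which lay below M1. The log2 fold change of -0.37 (standard error 0.15) did not pass (adjusted p = 0.145 by edgeR). With DESeq2 the adjusted p-value was 0.049. All 87 chaperone genes together took 0.815% to 1.07% of the counts in males and 1.06% to 1.19% in females.

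The heat-inducible HSP70 genes had low levels in both sexes. On chromosome 3, *hsp70.1* (26112780 to 26115559), *hsp70.2* (26119603 to 26122353) and *hsp70.3* (26123736 to 26127091) lie in a row. The level of *hsp70.3* was 8.02, 11.6, 6.20 and 0.1 CPM in M1, M2, pkd1M1 and pkd1M4 and 0 to 2.85 CPM in females. That of *hsp70.2* was 5.94, 6.33, 2.39 and 1.23 CPM in the same males and 0.291 to 2.505 CPM in females, and *hsp70.1* had 0.997, 4.37, 0.705 and 1.03 CPM in males and 0 to 1.83 CPM in females. M2 was the highest male library in all 3 genes. The log2 fold changes of 2.07, 1.90 and 1.04 had standard errors of 1.196, 0.75 and 1.17 and did not pass (adjusted p = 0.311, 0.13 and 0.643 by edgeR). Summed over the 3 genes, among which similar reads could be divided, the level was 2.37 to 22.3 CPM in males and 1.72 to 5.73 CPM in females.

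The related *hsp70l* had 2.08, 5.10, 2.71 and 3.37 CPM in M1, M2, pkd1M1 and pkd1M4 and 0.401 to 1.599 CPM in females. The sexes did not overlap, yet at these low levels the log2 fold change of 1.52 (standard error 0.57) did not pass (adjusted p = 0.111 by edgeR). It passed with DESeq2 (adjusted p = 0.0459) and with at least 10 counts required in all libraries (adjusted p = 0.0414). The remaining *hspa1b*, *hspa8b*, *hspa12a*, *hspa12a.1*, *hspa12b*, *hspa13* and *hspa14* had adjusted p-values of 0.556 to 0.99.

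Of the 16 genes listed as heat-inducible, 15 were tested and 4 were higher in males, *hsp90aa1.2*, *hspe1*, *hspa4a* and *dnajb1a* (26.7%, against 7.02% of all genes). In the same direction 7 had an unadjusted p under 0.05, where 2966 of the 22148 genes tested did. DESeq2 called 6 in this direction, adding *hspd1* and *hsp70l*, and 2209 of the 28244 genes it was run on. None of the 15 was higher in females by edgeR, where 2 had an unadjusted p under 0.05 and 2971 of the 22148 genes tested did. DESeq2 called 2 higher in females, *hsp90aa1.1* and *hspb11*, and 2190 of all genes. The median log2 fold change was 0.94, with values from -5.07 to 3.14, so the list did not move as a block. The heat shock factor *hsf1*, the main activator of these genes, had 15.4 ± 4.23 CPM in males and 16.3 ± 3.86 CPM in females (SD, n = 4 and 5, log2 fold change -0.079, adjusted p = 0.887 by edgeR). The factor *hsf2* was higher in males, with 38.1 ± 2.40 CPM against 15.3 ± 7.55 CPM in females (log2 fold change 1.32, adjusted p = 0.0222) and no overlap. It was the 1 gene that passed of 5 tested among 7 listed heat shock factors and regulators (20.0%, against 7.02% of all genes). The median over the 5 was 0.19.

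**Figure D3:**
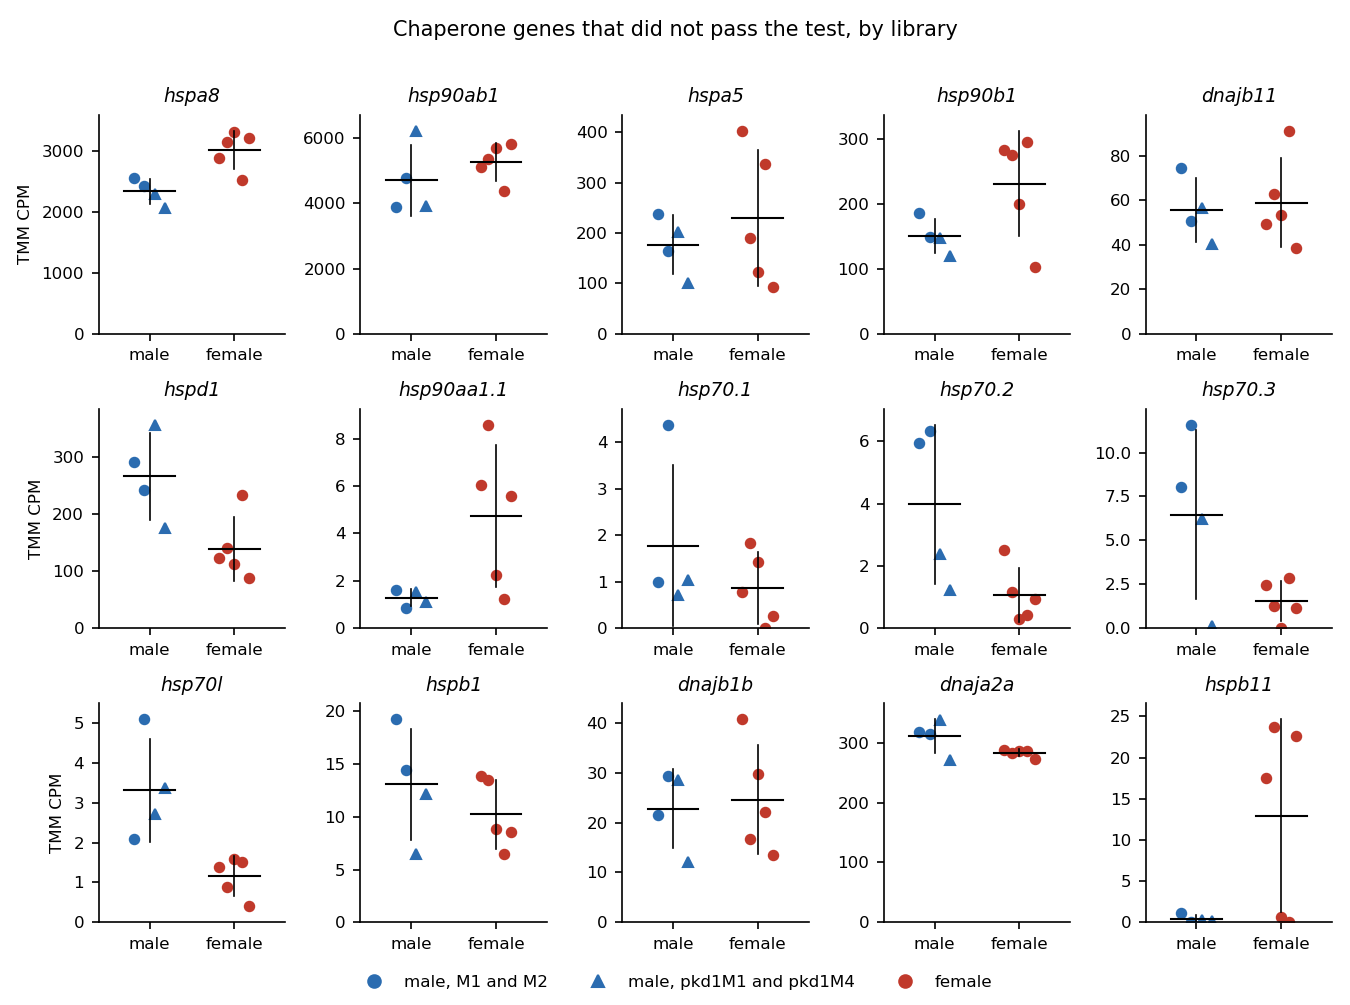
Levels in TMM CPM (y axis, linear from 0) of 15 chaperone genes that did not pass the test, drawn as above with triangles for pkd1M1 and pkd1M4, a line at the mean and a bar of 1 SD cut off at 0. In *hspb11* 3 of the 5 female libraries are high and 2 lie at the male level. Among females F4 is the highest library in *hspd1* and F6 the lowest in *hsp90b1*.

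The members listed for the ER showed no called difference. However, the list leaves out the ER membrane gene *dnajb12a*, which passed, and its paralog *dnajb12b*, which did not, both described below. Of the 11 genes listed, all tested, none passed in either direction with edgeR, where 13.2% of all genes passed. None had an unadjusted p under 0.05 and DESeq2 called 0. The median log2 fold change was -0.087, from -0.62 to 0.51. The ER HSP70 *hspa5* (BiP) had 238, 164, 203 and 102 CPM in M1, M2, pkd1M1 and pkd1M4 and 403, 191, 123, 336 and 93.3 CPM in F1, F2, F3, F4 and F6. The spread within females, from F6 to F1, was wider than that of the males and enclosed it (log2 fold change -0.38, standard error 0.43, adjusted p = 0.647 by edgeR).

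The ER J protein gene *dnajb11* is linked in humans to polycystic kidney disease. It had 74.3, 50.7, 56.6 and 40.3 CPM in M1, M2, pkd1M1 and pkd1M4 and 49.1, 62.9, 53.2, 91.1 and 38.3 CPM in F1, F2, F3, F4 and F6 (log2 fold change -0.087, standard error 0.27, adjusted p = 0.882 by edgeR). Among females F4 was highest and F6 lowest, as for *hsp90b1*. The partner of BiP in the unfolded protein response, *dnajc3a*, had a log2 fold change of 0.35 (adjusted p = 0.471) and its paralog *dnajc3b* -0.13 (adjusted p = 0.784).

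The J proteins made up the largest number of genes, with 5 of class A, 14 of class B and 32 of class C. In class A 1 of 5 passed, higher in males (20.0%, against 7.02% of all genes). The cytosolic *dnaja1* had 28.0, 18.3, 33.9 and 16.7 CPM in M1, M2, pkd1M1 and pkd1M4 and 8.35 to 11.12 CPM in females, with no overlap (log2 fold change 1.27, standard error 0.26, adjusted p = 0.00977 by edgeR). The closely related *dnaja2a* had 319, 315, 338 and 271 CPM in the same males and 287, 284, 286, 287 and 273 CPM in F1, F2, F3, F4 and F6. Its female libraries were almost level, and its log2 fold change of 0.13 (standard error 0.13) did not pass (adjusted p = 0.597).

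In class B 13 of 14 genes were tested and 2 passed, both higher in males (15.4%, against 7.02% of all genes). The gene *dnajb12a*, whose human product sits in the ER membrane and faces the cytosol, had 57.6, 62.2, 46.6 and 44.7 CPM in M1, M2, pkd1M1 and pkd1M4 and 30.3 to 34.8 CPM in females. The difference was modest but the female libraries lay within a few CPM of each other (log2 fold change 0.71, standard error 0.16, adjusted p = 0.0148 by edgeR). The paralog *dnajb12b* did not pass, with 0.70 to 7.63 CPM in males and 3.54 to 9.30 CPM in females (log2 fold change -0.31, standard error 0.58, adjusted p = 0.799). The stress-inducible *dnajb1a* (HSP40) had 16.4, 17.0, 22.4 and 12.9 CPM in males and 6.45 to 10.9 CPM in females (log2 fold change 0.90, standard error 0.25, adjusted p = 0.0394). Its paralog *dnajb1b* had 12.04 to 29.3 CPM in males and 13.5 to 40.7 CPM in females (log2 fold change -0.11, standard error 0.36, adjusted p = 0.891).

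Class C held 32 genes, 30 of them tested, and 16.7% passed, where 13.2% of all genes did. In males 4 were higher (13.3%, against 7.02% of all genes) and in females 1 (3.33%, against 6.20%). Beside *dnajc15*, the auxilin gene *dnajc6*, which with HSC70 strips clathrin from vesicles, had 52.5, 11.4, 52.2 and 34.3 CPM in M1, M2, pkd1M1 and pkd1M4. In F1, F2, F3, F4 and F6 it had 7.13, 13.1, 8.04, 3.46 and 13.7 CPM. The male M2 lay within the female range (log2 fold change 2.05, standard error 0.49, adjusted p = 0.02 by edgeR). The gene *dnajc12*, whose human product assists the aromatic amino acid hydroxylases, had 12.5 ± 3.87 CPM in males and 5.02 ± 1.82 CPM in females (SD, n = 4 and 5, log2 fold change 1.32, adjusted p = 0.0289). The gene *dnajc21*, of ribosome assembly, had 38.1 ± 12.02 CPM in males and 20.8 ± 5.70 CPM in females (log2 fold change 0.87, adjusted p = 0.0488), close to the limit of the test.

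The gene higher in females was *dnajc5ab*, which encodes a cysteine string protein, a J protein of secretory vesicles. It had 41.4, 37.9, 30.1 and 41.4 CPM in M1, M2, pkd1M1 and pkd1M4, against 106, 145, 131, 186 and 57.9 CPM in F1, F2, F3, F4 and F6. The males were close together, the females spread out, and F6 was nearest to the males (log2 fold change -1.73, standard error 0.30, adjusted p = 0.00485 by edgeR), which is a ratio of 3.32 in favour of females. Its paralog *dnajc5aa* had at most 1.17 CPM in any library and was not tested. The relatives *dnajc5ga* and *dnajc5gb* had log2 fold changes of 0.50 and -0.40 (adjusted p = 0.119 and 0.403).

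The remaining called gene was *hspbp1*, an exchange factor that opens HSP70, with 15.2 ± 6.53 CPM in males and 5.62 ± 2.29 CPM in females (SD, n = 4 and 5, log2 fold change 1.43, adjusted p = 0.0338 by edgeR) and an overlap of pkd1M4 and F4. The symbol *hspbap1*, a binding partner of HSP27, did not pass (log2 fold change -0.40, adjusted p = 0.622). Of the 16 HSP70 cochaperones found, all tested, *bag3* and *grpel1* were the 2 that passed (12.5%, where 13.2% of all genes did), and the median was 0.018.

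The CCT chaperonin and prefoldin, chaperones of the cytosol outside these families, were close to level. All 9 rows listed for the CCT chaperonin, which folds actin and tubulin, had log2 fold changes from -0.27 to -0.043. None passed in either direction with edgeR, where 13.2% of all genes passed (0 with an unadjusted p under 0.05, DESeq2 called 0). The 6 prefoldin subunits, which hand clients to CCT, had values from -0.28 to 0.12, and again none passed with 0 at an unadjusted p under 0.05 and 0 by DESeq2. With only 9 and 6 genes, counts of 0 tell little beside the share of 13.2% over all genes.

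**Figure D4:**
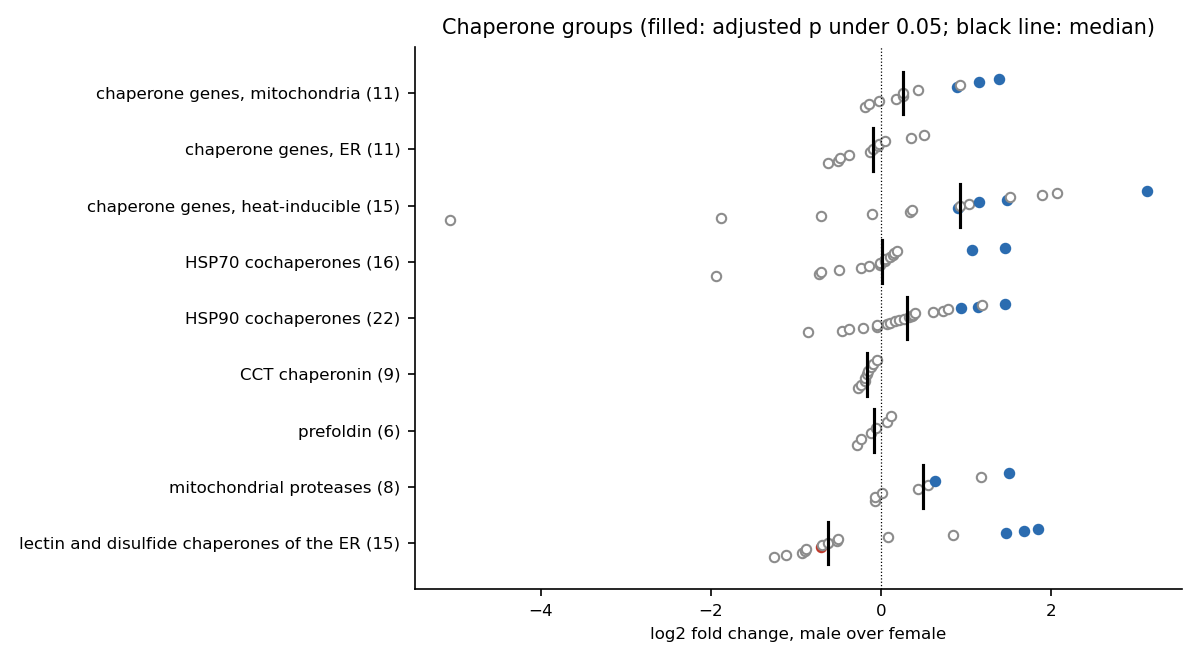
Log2 fold change (x axis, male over female) of the genes tested in each chaperone group, with the number of genes in brackets, filled blue for genes higher in males, filled red for genes higher in females, open grey for genes that did not pass and a black line at the median. The heat-inducible group reaches from -5.07 to 3.14, while CCT and prefoldin genes lie between -0.28 and 0.12.

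The 9 genes not tested had few counts. They were *hspb2*, *hspb3*, *hspb7*, *hspb9*, *hspa4l*, *hspa12a.2*, *dnajb5*, *dnajc5aa* and *dnajc5b*. The highest level of any of them in a library was 2.78 CPM, for *hspb7*, a small heat shock protein of heart and muscle, in F1, and this gene had at most 0.406 CPM in the other libraries.

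The calls differed in how far they rested on single libraries. Fits that left out 1 library called 9 genes (without pkd1M1) to 16 genes (without F4), with 8.51% and 10.8% of all genes called. In all 9 of these fits *hsp90aa1.2*, *hspb8*, *hspa9*, *dnaja1*, *hspe1*, *hspb6*, *dnajc15*, *dnajb12a* and *dnajc5ab* passed, 9 of the 15. The other 6 lost the call in some fits, with adjusted p-values up to 0.0607 for *dnajc6* (without M1 or pkd1M1) and up to 0.077 for *hspa4a* (without M1, M2, pkd1M1, F1, F2 or F3). The highest values were 0.0951 for *dnajc12* (lost without M2, pkd1M1, pkd1M4, F1 or F3) and 0.0964 for *hspbp1* (lost without M1, M2, pkd1M1, F1, F2, F3 or F6). For *dnajb1a* the highest was 0.116, with a call only without pkd1M4, and for *dnajc21* it was 0.152, with a call only without F6. In the fits that lost the call the log2 fold changes stayed positive, at 1.85 for *dnajc6* (2.05 with all libraries), 1.32 to 1.498 for *hspa4a* (1.49) and 1.09 to 1.38 for *dnajc12* (1.32). They were 1.22 to 1.55 for *hspbp1* (1.43), 0.75 to 0.96 for *dnajb1a* (0.90) and 0.63 to 0.98 for *dnajc21* (0.87).

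The counts fell in fits without the 2 libraries named with pkd1, which are both male, or with a term for them. Without them, with 2 males against 5 females, 5 chaperone genes passed, *hsp90aa1.2*, *hspb8*, *hspa9*, *hspb6* and *dnajb12a*, all higher in males. In this fit 3.60% of all genes passed, and these leaned to males as well, with 538 higher in males and 321 in females. With a term for these libraries the sex difference also rests on M1 and M2 against the 5 females, so this fit makes the same comparison. In it 4 passed, the same genes without *hspb6*, and 4.04% of all genes passed (598 higher in males, 296 in females). The part of the smaller number of males in the counts was not tested. The gene *dnajc5ab* did not pass in either fit, with adjusted p-values of 0.0748 without them and 0.0587 with the term. Its log2 fold change was -1.66 in both, against -1.73 with all libraries, and the standard errors were 0.42 and 0.41, against 0.30. In every alternative run *hsp90aa1.2*, *hspb8* and *hspa9* passed, and the 14 genes kept a positive and *dnajc5ab* a negative log2 fold change.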

How the data were processed

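The deposited table gives estimated counts per gene for 9 kidney libraries. The authors assigned paired-end reads with Kallisto to Ensembl release 101 of GRCz11 (their processing notes list GRCz10) and summed transcripts with tximport as TPM scaled to library size. Column names say scaledTPM and the methods length-scaled TPM, so comparisons of levels between genes depend on this scaling. These are the sums over lists, the genes that made up most of them, the share of counts, and levels called low or highest among genes. Levels of different genes were otherwise not compared. These expected counts, as deposited, are whole numbers and not normalized between libraries. Every library column was used.

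Low counts were filtered with filterByExpr, and sexes were compared with TMM scaling and quasi-likelihood fits (R 4.3.3, edgeR 4.0.16). Standard errors are the log2 fold change over the square root of F. Libraries within a sex differed by more than sampling noise (chi-square per gene at least 82.5). The columns pkd1M1, pkd1M4 and F6 match no sample title in full and were used by sex. Values by library are given for up to 10 genes with the smallest p in each direction and a list of core chaperones. The genes *hspb11*, *dnajb12b*, *ptges3b*, *hsf1*, *grpel2*, *h1m*, *zp3b*, *zp2.3*, *tfa*, the proteases that did not pass, *calr*, *calr3a* and *calr3b* were named after their values were seen. Members and lists were chosen with earlier results of these data known. Alternatives were RLE size factors, DESeq2 1.42.0, a minimum of 10 counts per library or no minimum, single libraries omitted, the pkd1-named libraries left out or given a term, and a replicate block. Sequences of the genes were not used here. Figures were drawn with matplotlib 3.10.9.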

Additional observations from a re-analysis of the deposited data

Results flagged for a closer look

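In 64 groups of libraries, the sexes of each gene described, 4 had a library apart from the others of its sex, and chance alone flags about 1 in 20. The level of *hspe1* was 86.0 CPM in F4, against 43.6 to 51.7 CPM in the other females. For *hsp70.1* it was 4.37 CPM in M2, against 0.705 to 1.03 CPM in the other males. For *hsph1* it was 7.0 CPM in pkd1M4, against 2.08 to 2.86 CPM in the other males. The fourth was *dnaja2a* with 273 CPM in F6, against 284 to 287 CPM in the other females, a small difference among libraries that were close together.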

How the results depend on the processing

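RLE size factors called the same 15 genes. The DESeq2 test called 20 of 87 (16 higher in males, 4 in females, 8 past the fold limit) and 4399 of 28244 genes (15.6%). No filter called 13 of 87, where 9.22% of all genes passed. At least 10 counts in every library called 18 of 69, 2 of them higher in females, where 19.9% of all genes passed. Leaving out 1 library gave 9 to 16 genes (8 to 13 higher in males, 1 to 3 in females, 4 to 10 past the fold limit) and 1948 to 3343 of all genes. Without the pkd1-named libraries 5 passed (5 and 0 by sex) with 859 of all genes (538 higher in males, 321 in females). With a term for them, the same comparison of M1 and M2 with the females, 4 passed (4 and 0, 3 past the fold limit) with 894 (598 and 296). The replicate block could use M1, M2, F1 and F2 only, and gave 5 genes (4 and 1) and 905 of all genes (510 and 395). The same libraries without the block, a fit chosen after seeing the data, gave 4 genes (4 and 0, 3 past the fold limit) and 363 of all genes (242 and 121). Same-numbered libraries did not deviate together (correlation -0.000325 over genes in 2 pairs), so the numbers were not read as pairing. For *dnajb11*, with a log2 fold change of -0.087, the sign turned in 6 alternatives: leaving out pkd1M4 (0.039) or F4 (0.119), leaving out the pkd1-named libraries (0.083) or giving them a term (0.085), and M1, M2, F1 and F2 with the block (0.143) or without (0.159), and leaving out 1 library gave -0.261 to 0.119. For *dnajb1b* it turned without pkd1M4 (0.102) or F1 (0.15), without the pkd1-named libraries (0.042) and with a term for them (0.045), with -0.262 to 0.15 over the fits without 1 library. For *hspa8b* it turned without M1 (-0.119) and in M1, M2, F1 and F2 with the block (-0.695) or without (-0.025), with -0.119 to 0.803 over the fits without 1 library. None of these 3 genes passed in any fit, and the cause of the changes was not tested. Fits with fewer libraries rest on fewer samples, and the part of this in the counts was not tested. Leaving out F6 called 3343 of all genes, against 2928 with all libraries.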

Other observations

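Chaperones of the ER outside the HSP and DnaJ families were split between the sexes. Of the 15 genes found for lectin chaperones, disulfide isomerases and related ER proteins, all tested, 3 were higher in males (20.0%, against 7.02% of all genes). In females 1 was higher (6.67%, against 6.20% of all genes), while the median log2 fold change was -0.62. DESeq2 called 3 higher in males and 5 in females, and 4 and 5 had an unadjusted p under 0.05. Over all genes, DESeq2 called 2209 and 2190, and 2966 and 2971 of 22148 had an unadjusted p under 0.05. The membrane lectin *canx* (calnexin), which holds glycoproteins during folding, had 1297, 1123, 2574 and 1526 CPM in M1, M2, pkd1M1 and pkd1M4, against 426 to 626 CPM in females (log2 fold change 1.69, standard error 0.25, adjusted p = 0.00201 by edgeR). Its soluble relatives *calr*, *calr3a* and *calr3b* had log2 fold changes of -0.69, -0.88 and -1.25 and did not pass (adjusted p = 0.286, 0.0584 and 0.0997). The disulfide isomerase *pdia3*, which works with both lectins, was lower in males, with 285 ± 25.7 CPM against 463 ± 78.9 CPM in females (SD, n = 4 and 5, log2 fold change -0.70, adjusted p = 0.0216) and no overlap. The collagen chaperone genes *serpinh1a* and *serpinh1b* (HSP47) were higher in males, with log2 fold changes of 1.85 and 1.48 (adjusted p = 0.0146 and 0.0323).

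Immediate early genes respond quickly to stimuli such as handling. Of 19 tested, *fosl1a* was higher in males (log2 fold change 2.78, adjusted p = 0.00208 by edgeR) and *atf3* higher in females (-3.05, adjusted p = 0.00258), with a median of -0.65. These 2 were 10.5% of the genes tested, where 13.2% of all genes passed. The level of *atf3* was 11.7, 9.70, 5.09 and 6.90 CPM in M1, M2, pkd1M1 and pkd1M4 and 69.0, 60.2, 79.9, 116 and 19.9 CPM in F1, F2, F3, F4 and F6, with F6 nearest to the males as for *dnajc5ab*.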
